A study of Mus musculus with 6 samples.

Results

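Voltage-gated calcium and sodium channels are described here by the transcripts of their subunits. The genes were taken by symbol, which gave 32 in all, and 30 of them are described here: 10 calcium channel pore genes (Cacna1a to Cacna1i and Cacna1s), 4 alpha2delta genes (Cacna2d1 to Cacna2d4), 4 calcium channel beta genes (Cacnb1 to Cacnb4), 9 sodium channel pore genes (Scn1a to Scn4a and Scn7a to Scn11a) and 3 sodium channel beta genes (Scn2b to Scn4b). All 32 were among the 26264 symbols of the count files. The series measured total RNA, after removal of ribosomal RNA, in the dissected basolateral amygdala of male mice. It held 3 libraries from mice under chronic restraint stress (CRS), which are held immobile repeatedly, and 3 libraries from control mice (Ctrl) that were not stressed. Whether a library came from 1 mouse or from pooled mice is not stated. No strain, age or length of restraint is stated in the labels.

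In both channel families a large pore-forming protein senses the membrane voltage and passes the ion, and smaller auxiliary proteins carry it to the membrane and tune its gating. Sodium channels drive the upstroke of the action potential, with beta subunits that also act as adhesion molecules. Calcium channels turn depolarisation into transmitter release, dendritic spikes and calcium-dependent gene expression. Their beta subunits sit inside the cell on the pore protein, and alpha2delta subunits, the binding site of gabapentin, sit outside it. The basolateral amygdala is built mainly of glutamatergic projection neurons with a smaller population of GABAergic interneurons.

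The libraries held 9859449 to 10233706 counts in genes, so that 3 counts correspond to 0.290 to 0.308 CPM (counts scaled to TMM-adjusted library sizes). Glutamatergic markers of the dissected region were present in every library, led by Camk2a at 1159, 1145 and 1207 CPM in CRS 1 to 3, against 943, 1102 and 1291 CPM in Ctrl 1 to 3. Libraries stood apart in markers of neighbouring tissue. The summed CPM of 16 striatal and central amygdala markers was 402, 1081 and 1229 in CRS 1 to 3, against 2173, 1131 and 1289 in Ctrl 1 to 3, and all 16 genes had their lowest value in CRS 1, with Isl1 at 0 there. The summed CPM of 10 choroid plexus and ependymal markers was 15.995, 6043 and 27.1 in CRS 1 to 3, against 2372, 4203 and 46.7 in Ctrl 1 to 3. In bulk tissue, fewer cells of a type and less RNA per cell cannot be told apart. The study's design text calls the 3 libraries of each group biological replicates.

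Levels were set side by side per kilobase of exon, because the genes differ in length. Scn2a, a sodium channel pore of excitatory neurons, was the most abundant of the subunits described. It averaged 103 ± 8.03 under CRS and 93.997 ± 6.77 in Ctrl CPM per kilobase (SD, n = 3 each). Scn2b, a beta subunit linked to the pore by a disulfide bond, followed at 67.3 ± 6.80 under CRS and 73.9 ± 3.66 in Ctrl CPM per kilobase. In both groups these 2 means stood apart by more than either SD. Among calcium channel subunits the leading genes lay close together. Cacna1e, the R-type pore, averaged 63.7 ± 4.63 under CRS and 54.3 ± 3.17 in Ctrl CPM per kilobase. Cacna2d1, an alpha2delta subunit, averaged 56.7 ± 5.11 under CRS and 51.9 ± 6.30 in Ctrl CPM per kilobase. Cacnb3, a beta subunit of neuronal channels, averaged 52.4 ± 4.88 under CRS and 53.4 ± 5.61 in Ctrl CPM per kilobase. The Ctrl values of these 3 calcium channel genes differed by less than their SDs, whereas under CRS Cacna1e stood above the Cacnb3 mean by more than either SD.

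**Figure D1:**
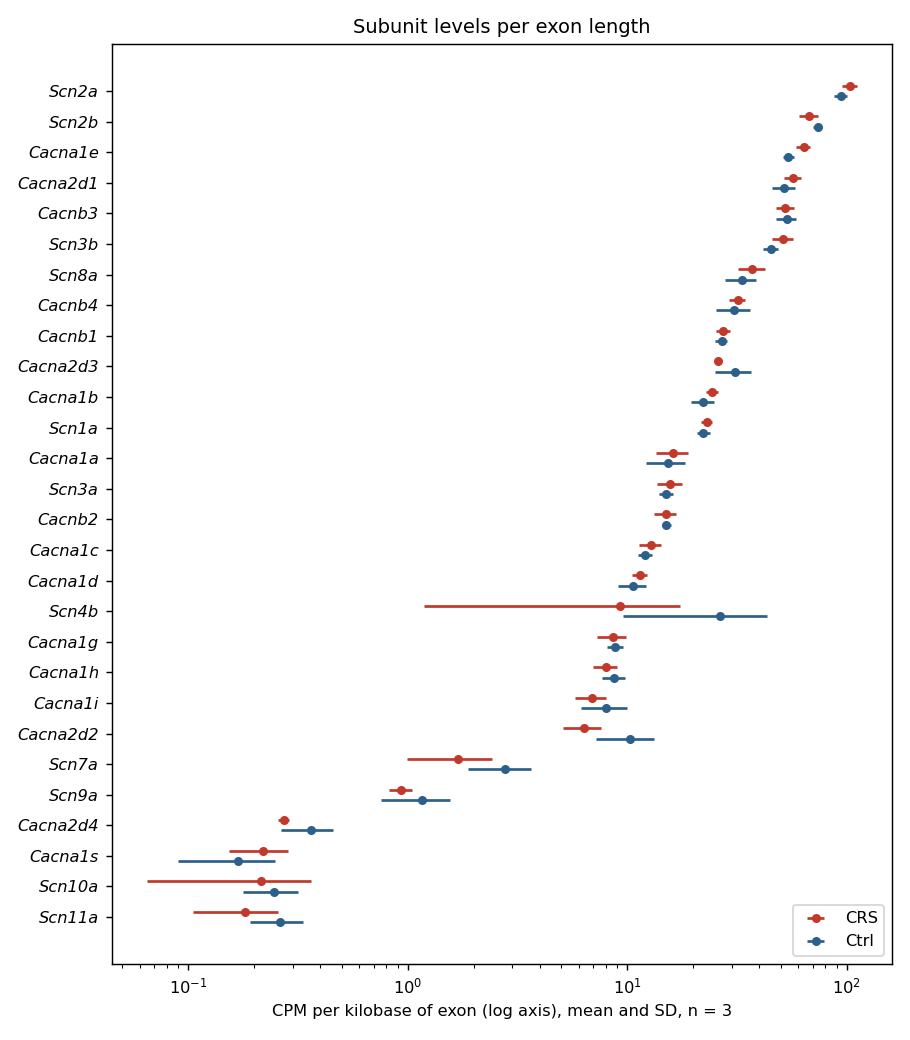
Mean CPM per kilobase of exon (log axis) with SD, for the 28 tested subunits in 3 CRS and 3 Ctrl libraries, ordered by the CRS mean. Scn2a lies at the top near 100 CPM per kilobase, and Cacna2d4, Cacna1s, Scn10a and Scn11a lie below 0.4 CPM per kilobase in both groups.

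Below these came Scn8a, the pore of the axon initial segment and nodes, at 37.1 ± 5.17 under CRS and 33.3 ± 5.43 in Ctrl CPM per kilobase. The presynaptic calcium channel pores Cacna1b (N-type) and Cacna1a (P/Q-type) averaged 24.5 ± 1.54 under CRS and 22.1 ± 2.71 in Ctrl and 16.2 ± 2.63 under CRS and 15.3 ± 3.12 in Ctrl CPM per kilobase. The L-type pores Cacna1c and Cacna1d averaged 12.8 ± 1.43 under CRS and 12.1 ± 0.895 in Ctrl and 11.4 ± 0.899 under CRS and 10.6 ± 1.57 in Ctrl CPM per kilobase. The T-type pores, which open near the resting potential, were lower and alike in level. Cacna1g averaged 8.57 ± 1.30 under CRS and 8.84 ± 0.774 in Ctrl, Cacna1h averaged 8.01 ± 0.992 under CRS and 8.73 ± 1.08 in Ctrl and Cacna1i averaged 6.90 ± 1.14 under CRS and 8.04 ± 1.91 in Ctrl CPM per kilobase. Together the 3 T-type genes made up 11.7, 10.8 and 10.9% in CRS 1 to 3, against 14.6, 12.01 and 13.8% in Ctrl 1 to 3 of the calcium pore CPM. The groups did not overlap, by the margin of 11.7% in CRS 1 against 12.01% in Ctrl 2. Of all tested genes, 4.47% were separate in the lower direction, and no p is given for a share over chosen genes. Cacna1e made up 47.6 to 53.3% of the same CPM, and its part in the T-type share was not tested. Scn4b, a disulfide-linked beta subunit and the neighbour of Scn2b in the genome, was the 18th of the 28 tested subunits under CRS and the 11th in Ctrl.

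Subunits best known from other organs were at the edge of detection. Cacna1s and Scn4a are the channels of skeletal muscle, Cacna1f and Cacna2d4 those of the retina, and Scn10a and Scn11a those of sensory neurons. Scn4a had 0, 0 and 0 counts in CRS 1 to 3, against 0, 1 and 0 counts in Ctrl 1 to 3, and Cacna1f had 4, 3 and 3 counts in CRS 1 to 3, against 3, 2 and 4 counts in Ctrl 1 to 3. These 2 genes did not pass the filter on low counts, which left 28 of the 30 genes to be tested. Cacna2d4 had 15, 15 and 17 counts in CRS 1 to 3, against 24, 15 and 24 counts in Ctrl 1 to 3. Cacna1s had 9, 16 and 17 counts in CRS 1 to 3, against 15, 13 and 5 counts in Ctrl 1 to 3. Apart from Scn4a, which was counted in 1 library, each of the 30 genes was counted at least once in all 6 libraries.

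**Figure D2:**
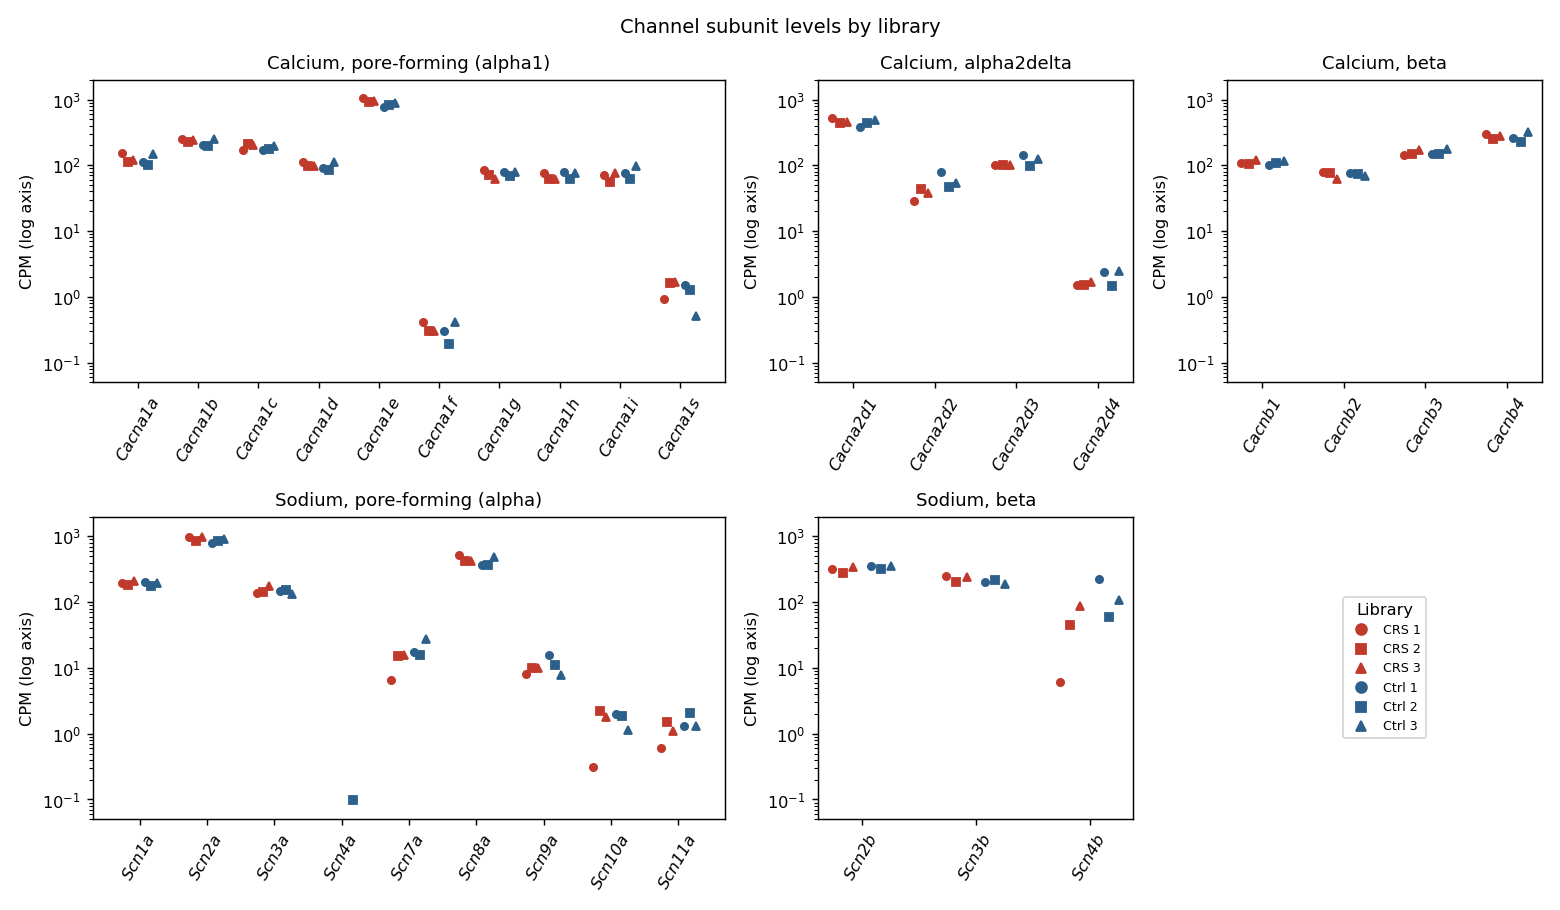
CPM (log axis) of each subunit in each of the 3 CRS and 3 Ctrl libraries, by class. The points of a group lie close together for most subunits over 50 CPM, Scn4b runs from 6.15 CPM in CRS 1 to 225 CPM in Ctrl 1, and libraries with no count (5 for Scn4a) are not drawn.

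The comparison of CRS with Ctrl asked which channel subunits differ after repeated restraint. Cacna1e was higher under CRS in all 3 libraries, and Cacna2d2 and Scn7a were lower. The share of auxiliary genes in the summed CPM, not scaled by gene length, was lower too. Cacna1e, Cacna2d2 and Scn7a did not pass the threshold. With edgeR's quasi-likelihood test, 0 of the 28 tested subunits had an adjusted p under 0.05 over all genes (the smallest was 0.997), against 0% of 14739 tested genes. DESeq2 and limma-voom also called 0 subunits, and over all genes DESeq2 called 2 and limma-voom 0. At an unadjusted p under 0.05 there was 1 subunit that was higher under CRS (1.33% of all tested genes) and 1 that was lower (2.04% of all tested genes). The groups did not overlap for 1 subunit that was higher (3.81% of all tested genes) and for 2 that were lower (4.47% of all tested genes). With 28 tested subunits, 1 or 2 genes are near these shares. Of the 28 subunits 14 had a log2 fold change above 0 and 14 below, with a median of 0.0064, against a median of -0.0044 over all tested genes. Of 17 tested pore genes 10 were above 0 (median 0.067), and of 11 auxiliary genes 4 were (median -0.026).

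**Figure D3:**
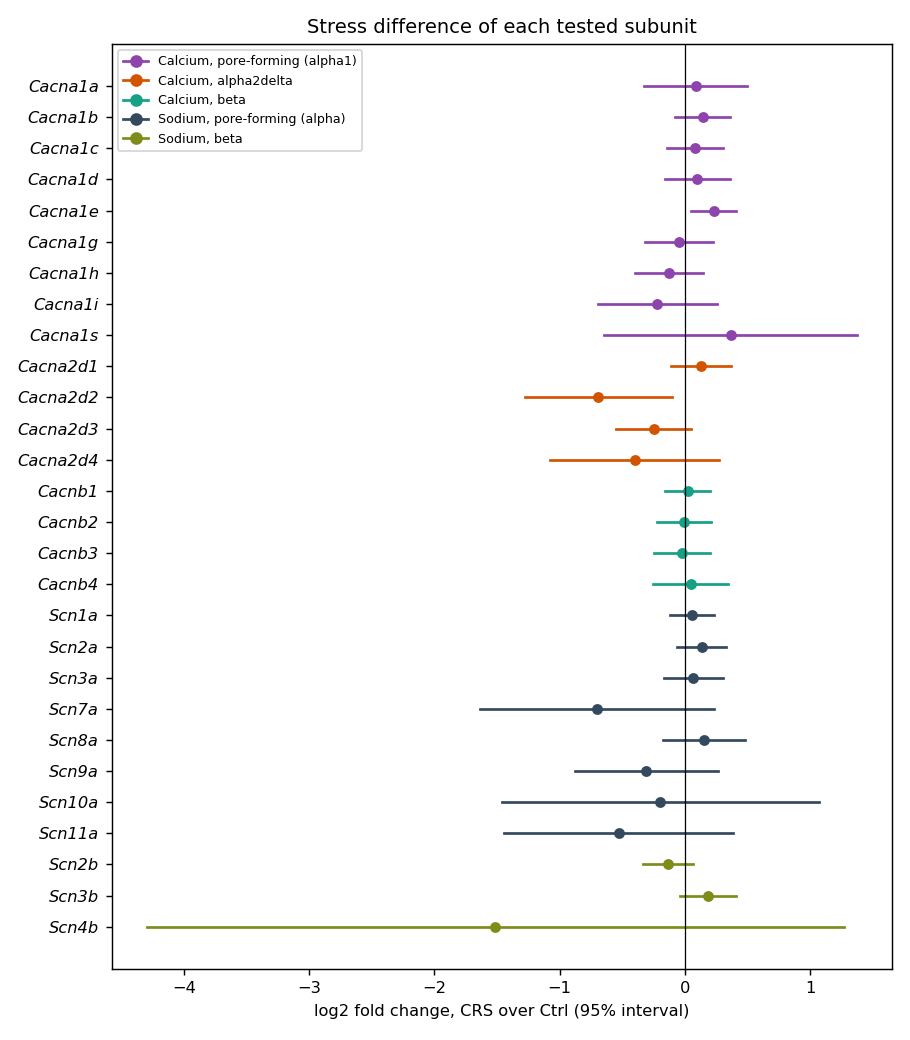
Log2 fold change of CRS over Ctrl with its 95% interval from edgeR's quasi-likelihood fit, for the 28 tested subunits by class. The intervals of Cacna1e (0.048 to 0.41) and Cacna2d2 (-1.28 to -0.10) leave out 0 without adjustment, and that of Scn4b (-4.29 to 1.27) is the widest.

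Among calcium channel pores, Cacna1e had the clearest separation of the groups. It was measured at 1049, 911 and 954 CPM in CRS 1 to 3, against 777, 834 and 873 CPM in Ctrl 1 to 3. The lowest CRS library thus stood above the highest Ctrl library. The log2 fold change was 0.23 ± 0.079 (SE, 95% interval 0.048 to 0.41), with an unadjusted p = 0.0195 and an adjusted p = 0.997 in edgeR. Cacna1e made up 53.3, 52.2 and 52.5% in CRS 1 to 3, against 48.8, 52.5 and 47.6% in Ctrl 1 to 3 of the calcium pore CPM. These shares overlap between the groups, since Ctrl 2 lay among the CRS libraries. The summed CPM of 10 glutamatergic markers, which was 2943, 2669 and 3057 in CRS 1 to 3, against 2211, 2633 and 2918 in Ctrl 1 to 3, had its lowest value in Ctrl 1 as Cacna1e did. Of the 10 markers 10 had a log2 fold change above 0 (median 0.14), against 7141 of 14739 tested genes. The part of these markers in the Cacna1e difference was not tested. Without CRS 1 the log2 fold change was 0.17 (unadjusted p = 0.0606, edgeR) and without Ctrl 1 it was 0.19 (unadjusted p = 0.0694, edgeR). With both left out the log2 fold change was 0.13 (unadjusted p = 0.185, edgeR). With the striatal marker level as a covariate it was 0.13 (unadjusted p = 0.145, edgeR).

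The presynaptic and L-type pores had overlapping groups, each with an interval across 0. Cacna1b was measured at 255, 225 and 239 CPM in CRS 1 to 3, against 205, 198 and 247 CPM in Ctrl 1 to 3, with a log2 fold change of 0.14 ± 0.096 (95% interval -0.077 to 0.36). Cacna1a was measured at 152, 112 and 122 CPM in CRS 1 to 3, against 114, 101 and 149 CPM in Ctrl 1 to 3, with a log2 fold change of 0.086 ± 0.17 (95% interval -0.33 to 0.50). For both genes CRS 1 was the highest library and Ctrl 2 the lowest, and the other libraries of the groups overlapped. Cacna1c, the L-type pore that is also the main one of the heart, was measured at 169.6, 209 and 206 CPM in CRS 1 to 3, against 173, 179.8 and 199 CPM in Ctrl 1 to 3. Cacna1d, the L-type pore that opens at lower voltages, was measured at 112, 97.8 and 97.5 CPM in CRS 1 to 3, against 90.2, 84.6 and 111 CPM in Ctrl 1 to 3. Their log2 fold changes of 0.081 ± 0.096 (95% interval -0.14 to 0.30) and 0.10 ± 0.11 (95% interval -0.16 to 0.36) had intervals across 0. The sign of Cacna1a, Cacna1c and Cacna1d was not stable, as it turned below 0 in 1 or more of the other fits.

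The T-type pores had log2 fold changes below 0, each with an interval across 0. Cacna1g was measured at 84.2, 72.4 and 62.1 CPM in CRS 1 to 3, against 78.4, 67.6 and 79.5 CPM in Ctrl 1 to 3 (-0.044 ± 0.12 on the log2 scale, 95% interval -0.32 to 0.23). Cacna1h was measured at 75.4, 61.5 and 60.9 CPM in CRS 1 to 3, against 78.8, 61.9 and 75.1 CPM in Ctrl 1 to 3 (-0.13 ± 0.12, 95% interval -0.40 to 0.15). Cacna1i was measured at 71.8, 54.8 and 75.9 CPM in CRS 1 to 3, against 75.9, 61.5 and 98.6 CPM in Ctrl 1 to 3 (-0.22 ± 0.20, 95% interval -0.70 to 0.25). The groups overlapped for each, and for Cacna1i the value in Ctrl 3 stood above all others. The log2 fold change of Cacna1i was -0.026 without Ctrl 3, -0.086 without CRS 2 and -0.36 without Ctrl 2. It was -0.40 with the choroid plexus marker level as a covariate (unadjusted p = 0.00420, adjusted p = 0.9999, edgeR), a fit added after seeing the data. Without a covariate and with all libraries the unadjusted p of Cacna1i was 0.304 (edgeR). Cacna1g turned above 0 when CRS 3 was left out, to a log2 fold change of 0.059. The muscle pore Cacna1s, at under 2 CPM in every library, had a log2 fold change of 0.37 ± 0.44 (95% interval -0.64 to 1.38).

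The alpha2delta genes had log2 fold changes of both signs. Cacna2d2, which in mice is needed for normal cerebellar function, was measured at 29.1, 43.6 and 38.4 CPM in CRS 1 to 3, against 79.6, 46.1 and 53.7 CPM in Ctrl 1 to 3. All 3 CRS libraries lay below all 3 Ctrl libraries, and the extremes were CRS 1 and Ctrl 1. The log2 fold change was -0.69 ± 0.24 (SE, 95% interval -1.28 to -0.10), with an unadjusted p = 0.0281 and an adjusted p = 0.997 in edgeR. It was -0.43 without Ctrl 1 and -0.28 without CRS 1 and Ctrl 1 (unadjusted p = 0.0517 and 0.0482, edgeR). With the striatal marker level as a covariate it was -0.32 (unadjusted p = 0.117, edgeR), and with that of the choroid plexus -0.59 (unadjusted p = 0.0711, edgeR). The summed CPM of 10 GABAergic interneuron markers was 873, 922 and 983 in CRS 1 to 3, against 1256, 1013 and 1009.6 in Ctrl 1 to 3, so these sums did not overlap either. The mean log2 level of the list did overlap, since CRS 3 (-0.11 relative to the Ctrl mean) lay above Ctrl 2 (-0.14). Of the 10 markers 7 had a log2 fold change below 0, against 7598 of 14739 tested genes. The groups of 1 marker were separate in the lower direction, against 4.47% of all tested genes. The part of these markers in the Cacna2d2 difference was not tested.

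Cacna2d1, the most abundant alpha2delta subunit, was measured at 524, 444 and 459 CPM in CRS 1 to 3, against 381, 439.7 and 486 CPM in Ctrl 1 to 3. Its log2 fold change was 0.13 ± 0.10 (95% interval -0.11 to 0.37) and the groups overlapped. Cacna2d3 was measured at 103, 102 and 102 CPM in CRS 1 to 3, against 143, 97.1 and 125 CPM in Ctrl 1 to 3. The CRS libraries of Cacna2d3 lay within 1 CPM of each other while Ctrl spanned 97.1 to 143 CPM, and the log2 fold change was -0.25 ± 0.13 (95% interval -0.55 to 0.051). The unadjusted p with all libraries was 0.0912 (edgeR). The log2 fold change was -0.12 without Ctrl 1 and -0.38 without Ctrl 2 (unadjusted p = 0.330 and 0.00227, edgeR). Ctrl 2 was the only control below the CRS libraries, and without it the adjusted p was 0.99996 (edgeR). Within the class, Cacna2d1 made up 79.7, 75.1 and 76.4% in CRS 1 to 3, against 62.9, 75.2 and 72.9% in Ctrl 1 to 3 of the CPM. These shares overlapped at CRS 2 and Ctrl 2, which were close to equal. The retinal subunit Cacna2d4 had a log2 fold change of -0.40 ± 0.29 (95% interval -1.08 to 0.27).

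The calcium channel beta genes, which move the pore to the membrane, had the narrowest range of differences. Cacnb4, known in mice from the lethargic mutant, was measured at 301, 254 and 276 CPM in CRS 1 to 3, against 262, 224 and 317 CPM in Ctrl 1 to 3. Cacnb3 was measured at 146, 148 and 172 CPM in CRS 1 to 3, against 146, 150.5 and 177 CPM in Ctrl 1 to 3. Cacnb1 was measured at 108, 103 and 119 CPM in CRS 1 to 3, against 102, 108 and 116 CPM in Ctrl 1 to 3. Cacnb2, which is also the main beta subunit of the heart, was measured at 78.3, 75.3 and 62.7 CPM in CRS 1 to 3, against 75.9, 73.01 and 68.9 CPM in Ctrl 1 to 3. Their log2 fold changes ran from -0.026 for Cacnb3 to 0.048 for Cacnb4, and the groups overlapped for all 4. The widest of the 4 intervals was that of Cacnb4 (-0.25 to 0.35). Each of the 4 changed sign in 1 or more of the other fits.

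The abundant sodium channel pores had small log2 fold changes above 0. Scn2a was measured at 977, 854 and 983 CPM in CRS 1 to 3, against 788, 861 and 910.1 CPM in Ctrl 1 to 3 (0.14 ± 0.085 on the log2 scale, 95% interval -0.059 to 0.33). Scn8a was measured at 531, 419 and 421 CPM in CRS 1 to 3, against 371, 372 and 487 CPM in Ctrl 1 to 3 (0.16 ± 0.14, 95% interval -0.17 to 0.48). The groups overlapped for both, through CRS 2 for Scn2a and through Ctrl 3 for Scn8a. Scn1a, the pore on which parvalbumin interneurons in mice depend, was measured at 197, 185 and 209 CPM in CRS 1 to 3, against 199.6, 175 and 194 CPM in Ctrl 1 to 3 (0.056 ± 0.075, 95% interval -0.12 to 0.23). Scn3a, best known from the embryonic brain, was measured at 137, 145 and 176 CPM in CRS 1 to 3, against 149.9, 153 and 134 CPM in Ctrl 1 to 3 (0.067 ± 0.10, 95% interval -0.17 to 0.30). Scn1a had one of the narrowest ranges of all subunits, with its highest library 1.19 times its lowest. Scn2a made up 53.001 ± 0.970 under CRS and 52.2 ± 1.63 in Ctrl percent of the CPM of the 9 sodium pore genes (SD, n = 3 each), and Scn8a 25.8 ± 2.697 under CRS and 25.01 ± 2.31 in Ctrl percent. The sign of Scn8a turned below 0 in 3 of the other fits, and that of Scn3a without CRS 3.

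Several of the less abundant sodium channel pores were lowest in CRS 1. Scn7a encodes Nax, a sodium-level sensor of glia and other cells that is not gated by voltage in the usual way. It was measured at 6.46, 15.4 and 15.6 CPM in CRS 1 to 3, against 17.5, 15.8 and 27.8 CPM in Ctrl 1 to 3. The groups of Scn7a did not overlap, by the margin of 15.6 CPM in CRS 3 against 15.8 CPM in Ctrl 2. Its log2 fold change was -0.70 ± 0.38 (95% interval -1.64 to 0.23, unadjusted p = 0.115, adjusted p = 0.997, edgeR). It was -0.39 without CRS 1 and -0.41 without Ctrl 3. With the striatal marker level as a covariate it was -0.29, and -1.33 without the 3 libraries high in choroid plexus markers, which leaves Ctrl 3 as the only control.

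Scn9a, the pain-related pore of peripheral neurons, was measured at 8.10, 10.2 and 9.82 CPM in CRS 1 to 3, against 15.8, 11.1 and 7.86 CPM in Ctrl 1 to 3. Its log2 fold change was -0.31 ± 0.25 (95% interval -0.88 to 0.26), and it was -0.020 without Ctrl 1, the highest library. Scn10a had 3, 22 and 18 counts in CRS 1 to 3, against 20, 19 and 11 counts in Ctrl 1 to 3. Scn11a had 6, 15 and 11 counts in CRS 1 to 3, against 13, 21 and 13 counts in Ctrl 1 to 3. CRS 1 was the lowest library for both, on very few counts, and their log2 fold changes of -0.20 ± 0.55 and -0.53 ± 0.40 had intervals across 0. Scn10a and Scn11a lie next to each other in the genome, as do Scn1a, Scn9a and Scn7a.

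Scn4b was the most variable subunit. It was measured at 6.15, 45.7 and 86.7 CPM in CRS 1 to 3, against 225, 60.6 and 109.9 CPM in Ctrl 1 to 3, so that its highest library was 36.6 times its lowest. Of 24 subunits with a mean over 5 CPM, 20 had a range of at most 2-fold over the 6 libraries. CRS 3 exceeded Ctrl 2, so the groups overlapped. The log2 fold change of -1.51 ± 1.04 (SE, 95% interval -4.29 to 1.27, unadjusted p = 0.213, adjusted p = 0.997, edgeR) was the largest of the 28 in size and the least precise. On the log2 scale relative to the Ctrl mean, Scn4b stood at -4.22 in CRS 1 and 0.98 in Ctrl 1, where the mean level of the striatal and central amygdala markers stood at -2.47 and 0.59. The marker list was chosen with earlier results of these data known. Of its 16 markers 16 had a log2 fold change below 0, against 7598 of 14739 tested genes. The groups were separate for 3 of the 16 markers (4.47% of all tested genes in this direction). At an unadjusted p under 0.05 in edgeR there were 0 of the 16 markers (2.04% of all tested genes were lower). With the level of the list as a covariate the log2 fold change of Scn4b was -0.10 (unadjusted p = 0.775, edgeR), and without CRS 1 and Ctrl 1 it was -0.36 (unadjusted p = 0.550, edgeR). It was -0.99 without CRS 1, -0.88 without Ctrl 1 and -2.35 without CRS 3.

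**Figure D4:**
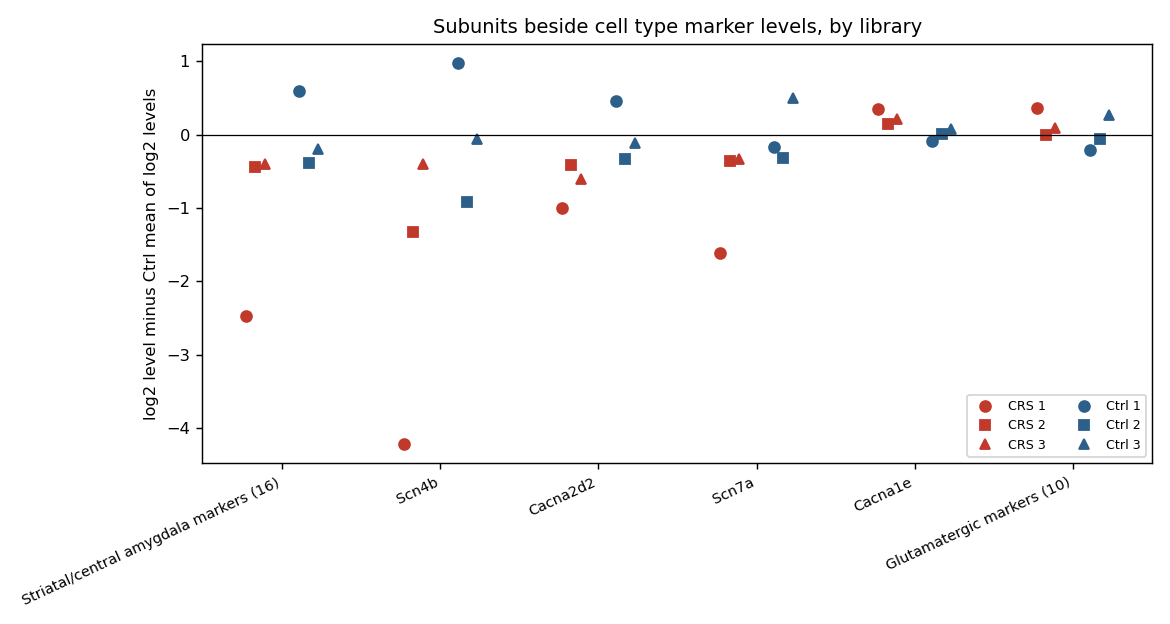
Log2 level of 4 subunits and mean log2 level of 2 marker lists in each library, relative to the Ctrl mean; for the 16 striatal and central amygdala markers and the 10 glutamatergic markers the value is the mean over the list. CRS 1 is the lowest library for the striatal list (-2.47), Scn4b (-4.22), Cacna2d2 and Scn7a, and the highest for Cacna1e and the glutamatergic list.

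The other sodium channel beta genes varied little. Scn2b was measured at 318, 280.0 and 343 CPM in CRS 1 to 3, against 351, 324 and 356 CPM in Ctrl 1 to 3 (-0.13 ± 0.086 on the log2 scale, 95% interval -0.33 to 0.064). Scn2b overlapped only in that CRS 3 lay above Ctrl 2. Scn3b, which is not covalently bound to the pore, was measured at 251, 203 and 242 CPM in CRS 1 to 3, against 202, 221 and 189.6 CPM in Ctrl 1 to 3 (0.18 ± 0.096, 95% interval -0.037 to 0.41). CRS 2 lay among the Ctrl libraries of Scn3b. Scn2b and Scn4b are neighbours in the genome and both join the pore by a disulfide bond, and their ranges over the 6 libraries were 1.27-fold for Scn2b and 36.6-fold for Scn4b.

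Pore-forming and auxiliary subunits were then set against each other by their summed CPM in each library, over the 30 genes described. These sums were not scaled by gene length. Pore-forming genes summed to 3826, 3378 and 3635 CPM in CRS 1 to 3, against 3139, 3183 and 3596 CPM in Ctrl 1 to 3. Auxiliary genes summed to 1866, 1699.7 and 1902 CPM in CRS 1 to 3, against 1971, 1746 and 2001 CPM in Ctrl 1 to 3. Each sum overlapped between the groups, at Ctrl 3 for the pores. The ratio of auxiliary to pore-forming CPM was 0.488, 0.503 and 0.523 in CRS 1 to 3, against 0.628, 0.549 and 0.556 in Ctrl 1 to 3, and here all CRS libraries lay below all Ctrl libraries. Its mean was 0.505 ± 0.0179 under CRS and 0.578 ± 0.0437 in Ctrl (SD, n = 3 each). The lowest ratio was that of CRS 1 and the highest that of Ctrl 1. The same libraries had the lowest and highest summed CPM of striatal and central amygdala markers (402 and 2173). The part of these markers in the ratio was not tested. A separation of the groups was found for 4.47% of single genes in the lower direction, and no p is given for a sum over chosen genes. Per family, the calcium ratio of alpha2delta and beta genes to pores was 0.655, 0.671 and 0.677 in CRS 1 to 3, against 0.748, 0.717 and 0.734 in Ctrl 1 to 3, and the sodium ratio of beta genes to pores was 0.310, 0.324 and 0.370 in CRS 1 to 3, against 0.504, 0.381 and 0.372 in Ctrl 1 to 3. The groups were separate in both families, with a gap of little width for sodium.

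**Figure D5:**
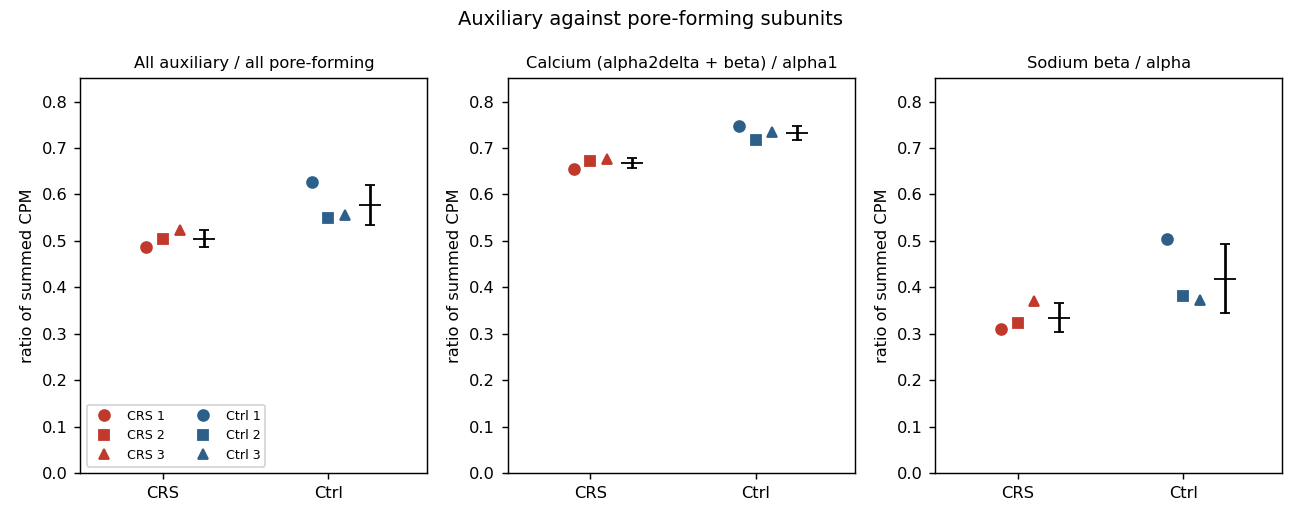
Ratio of summed CPM of auxiliary to pore-forming subunits for both families together, for calcium channels and for sodium channels, in 3 CRS and 3 Ctrl libraries; bars are the mean and SD. In the first panel the CRS libraries lie at 0.488 to 0.523 and the Ctrl libraries at 0.549 to 0.628.

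The ratio was also taken with single genes left out. With Scn4b left out after its values were seen, it was 0.486, 0.490 and 0.500 in CRS 1 to 3, against 0.556, 0.529 and 0.526 in Ctrl 1 to 3. With Cacna1e, the only pore gene higher in all CRS libraries, left out of the pores, the ratio was 0.672, 0.689 and 0.710 in CRS 1 to 3, against 0.834, 0.743 and 0.735 in Ctrl 1 to 3. The groups stayed separate in both. The difference of the mean ratio (CRS minus Ctrl) was -0.045 without Scn4b, against -0.073 with all genes. The part of single genes in this difference was not tested. For sodium channels the ratio without Scn4b was 0.306, 0.296 and 0.322 in CRS 1 to 3, against 0.358, 0.342 and 0.309 in Ctrl 1 to 3, where CRS 3 lay above Ctrl 3, so that the sodium groups then overlapped. Reads left without a gene were 57.4, 55.4 and 54.99% in CRS 1 to 3, against 55.1, 53.004 and 54.8% in Ctrl 1 to 3. These are shares of reads in genes, without a gene, ambiguous or non-unique, with low-quality alignments left out. The part of reads without a gene in the ratio was not tested.

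Genes that work with the channels were read from 2 lists. Of 20 tested calcium channel partners (gamma subunits, RGK proteins, active zone proteins and calmodulins) 0 passed the threshold over all genes in edgeR, DESeq2 or limma-voom, and at an unadjusted p under 0.05 there was 1 higher and 2 lower in edgeR, where the shares over all tested genes were 1.33% and 2.04%. Rims1, which ties calcium channels to the active zone, was measured at 448, 380.1 and 445 CPM in CRS 1 to 3, against 326, 346 and 374 CPM in Ctrl 1 to 3 (0.28 ± 0.087 on the log2 scale). Stac2, an adaptor of L-type channels, was measured at 10.9, 11.9 and 12.5 CPM in CRS 1 to 3, against 16.1, 14.4 and 18.4 CPM in Ctrl 1 to 3 (-0.47 ± 0.13). Cacng4, a gamma subunit that acts on AMPA receptors, was measured at 14.05, 23.1 and 23.4 CPM in CRS 1 to 3, against 36.6, 25.9 and 28.6 CPM in Ctrl 1 to 3 (-0.59 ± 0.22). The 3 are named for having the smallest p of their list. All 3 had groups without overlap (3.81% of all tested genes were separate in the higher and 4.47% in the lower direction), with unadjusted p = 0.0113, 0.00548 and 0.0333 and adjusted p = 0.997 each in edgeR. With the striatal marker level as a covariate the log2 fold change of Cacng4 was -0.20 (unadjusted p = 0.104, edgeR), and without CRS 1 and Ctrl 1 it was -0.23 (unadjusted p = 0.0910, edgeR). Leaving out Ctrl 1 alone gave -0.43 and leaving out CRS 1 alone -0.38. For Rims1 the covariate gave 0.21 (unadjusted p = 0.0707, edgeR) and leaving out both libraries 0.20 (unadjusted p = 0.0995, edgeR). Of the 20 partners 11 had a log2 fold change above 0 (median 0.018).

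Of 12 tested sodium channel partners 0 passed in edgeR, DESeq2 or limma-voom, with 0 higher (1.33% of all tested genes) and 1 lower (2.04%) at an unadjusted p under 0.05 in edgeR. Fgf14, an intracellular FGF that binds the sodium channel tail at the axon initial segment, was measured at 81.001, 86.2 and 88.5 CPM in CRS 1 to 3, against 99.9, 92.4 and 96.5 CPM in Ctrl 1 to 3. All CRS libraries lay below all Ctrl libraries, with a log2 fold change of -0.18 ± 0.065 (95% interval -0.33 to -0.026, unadjusted p = 0.0269, adjusted p = 0.997, edgeR), where 4.47% of all tested genes were separate in this direction. With the striatal marker level as a covariate it was -0.11 (unadjusted p = 0.186, edgeR), without CRS 1 and Ctrl 1 it was -0.11 (unadjusted p = 0.221, edgeR), and in DESeq2 the unadjusted p was 0.0698. Unc80, part of the complex of the sodium leak channel, had a log2 fold change of 0.13 ± 0.068 (95% interval -0.026 to 0.29), and its pore Nalcn one of 0.090 ± 0.077 (95% interval -0.087 to 0.27). The groups overlapped for Unc80 at Ctrl 3. Of the 12 partners 8 had a log2 fold change above 0 (median 0.019).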

How the data were processed

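Raw gene counts, neither normalized nor pooled, were deposited by the authors in a file for each library. Per the submitters' processing notes the build was mm39 and the tools included HTSeq 0.13.5, STAR 2.7.7a, edgeR 3.42.4 and FastQC 0.12.1, with no roles given. The annotation and strand setting are not stated, so reads of Cacna1c, Cacna1d, Cacna1h, Cacna2d3 and Cacna2d4, whose spans overlap protein-coding genes on the other strand in GENCODE M21 (GRCm38), may be shared or lost. That annotation served only for exon lengths and gene neighbours, and no coordinates are printed. Closing rows were left out: reads without a gene (53.0 to 57.4% of reads), ambiguous reads (0.162 to 0.194%) and non-unique reads (6.97 to 8.16%). These are shares of the reads in genes and in these rows. Low-quality alignments were left out and do not enter the shares.

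The analysis used edgeR 4.0.16 in R 4.3.3. The filter filterByExpr (minimum count 10, minimum total 15) kept 14739 genes, and TMM factors were 0.983 to 1.02. Its quasi-likelihood test, with robust estimation, compared CRS with Ctrl; p-values were adjusted by Benjamini-Hochberg over the tested genes, at a threshold of 0.05. SEs were the size of the log2 fold change divided by the root of F. Alternatives were DESeq2 1.42.0, limma-voom (limma 3.58.1), other normalizations, no filter, the replicate number as a covariate, libraries left out and marker levels as covariates. Those on choroid plexus markers were added after seeing the data. The procedure was tested on simulated data, in which each gene varied independently. Differences between libraries shared by many genes, as in the marker lists, were not simulated, so the test does not cover them. Of the 32 genes, 2 are not reported here and enter no sum or count of subunits; the other 30 are described. The 3 genes with the smallest unadjusted p of each partner list are named, and of marker lists at most the most abundant gene, besides Isl1, named for its 0 after its value was seen. Members and lists were chosen with earlier results of these data known. A sodium partner symbol, Nalf1, was not used here because no row carried it. Between any 2 libraries the counts differed beyond sampling noise (lowest chi-square per gene 2.82). The lists for oligodendrocytes and their precursors, astrocytes, vessels and microglia are given under other observations.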

Additional observations from a re-analysis of the deposited data

How the results depend on the processing

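In each of the 16 alternatives run 0 channel subunits and 0 partner genes passed the threshold. Over all genes DESeq2 called 2 and the quasi-likelihood test 0 to 1 with each library left out. Subunits at an unadjusted p under 0.05 numbered 0 to 4 (higher under CRS) and 0 to 2 (lower) with each library left out. With CRS 1 and Ctrl 1 both left out there were 0 higher, with the striatal covariate 0 higher and 0 lower, and 2 lower with DESeq2, with the replicate block, with the choroid plexus covariate and without the 3 libraries high in its markers. The 2 were not the same genes: Cacna2d2 and Scn7a with DESeq2, Cacna1i (unadjusted p = 0.0495) and Scn7a (unadjusted p = 0.0425) with the replicate block, Cacna1i and Scn2b with the choroid plexus covariate, and Cacna1i and Cacna2d2 without the 3 libraries, where the 1 higher was Scn3b in place of Cacna1e. The labels do not state that same-numbered libraries were paired. Deviations of same-numbered libraries from their group means correlated at -0.32, 0.53 and 0.28 across genes. CRS 1 correlated best with Ctrl 3 (0.48), whereas CRS 2 and CRS 3 correlated best with the control of their own number. With 3 libraries per group that differ in markers of neighbouring tissue, these values cannot show whether the samples were paired. The direction of the 28 subunits and the 6 named partners held under both other normalizations, without a filter, with DESeq2, with limma-voom and with the replicate block. The difference of the ratio of auxiliary to pore-forming CPM (CRS minus Ctrl, -0.073) was -0.0874 to -0.0477 with each library left out.

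Several log2 fold changes, up to the -0.31 of Scn9a in size, changed sign with the libraries or covariates used, and the cause was not tested. Without CRS 1 and Ctrl 1, 8 subunits turned: Cacna1a (-0.095), Cacna1d (-0.0050), Cacna2d1 (-0.037), Cacnb1 (-0.0070), Cacnb4 (-0.030), Scn8a (-0.032), Scn9a (0.071) and Scn10a (0.42). With the striatal covariate 6 turned: Cacna1a (-0.10), Cacna2d1 (-0.020), Cacnb3 (0.010), Cacnb4 (-0.029), Scn8a (-0.032) and Scn10a (0.63). With the choroid plexus covariate 5 turned: Cacna1a (-0.052), Cacnb1 (-0.026), Cacnb2 (0.020), Cacnb4 (-0.051) and Scn10a (0.12). Without the 3 libraries high in choroid plexus markers, where Ctrl 3 is the only control and is assumed to vary as the others do, 8 turned: Cacna1a (-0.12), Cacna1c (-0.084), Cacna1d (-0.090), Cacnb1 (-0.023), Cacnb2 (0.035), Cacnb4 (-0.13), Scn8a (-0.034) and Scn9a (0.19). Ranges with each library left out crossed 0 for Cacna1a (-0.051 to 0.26), Cacna1g (-0.16 to 0.059), Cacnb1 (-0.037 to 0.073), Cacnb2 (-0.073 to 0.081), Cacnb3 (-0.11 to 0.064), Cacnb4 (-0.057 to 0.19), Scn3a (-0.046 to 0.14) and Scn10a (-0.64 to 0.27). Cacna1f, Scn4a, Cacna1s, Cacna2d4, Scn10a and Scn11a rest on at most 24 counts in any library.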

Other observations

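Marker lists not set beside a channel gene in the results are given here as summed CPM. Over all tested genes, 7598 of 14739 had a log2 fold change below 0. Oligodendrocyte markers (12 genes, 12 below 0 in log2 fold change) summed to 1818, 2610.0 and 2050.1 in CRS 1 to 3, against 3676, 2547 and 2323 in Ctrl 1 to 3. Oligodendrocyte precursor markers (6 genes, 3 below 0) summed to 285, 317 and 312 in CRS 1 to 3, against 351, 317 and 302 in Ctrl 1 to 3, led by Pdgfra. Astrocyte markers (10 genes, 9 below 0) summed to 6764, 5900.1 and 6399 in CRS 1 to 3, against 6571, 6308 and 6923 in Ctrl 1 to 3, led by the glutamate transporter Slc1a2. Endothelial and pericyte markers (10 genes, 10 below 0) summed to 333, 313 and 324 in CRS 1 to 3, against 364, 331 and 393 in Ctrl 1 to 3, led by Rgs5. Microglia markers (8 genes, 6 below 0) summed to 385, 369.7 and 381 in CRS 1 to 3, against 416, 370.0 and 373 in Ctrl 1 to 3. CRS 1 and Ctrl 1 were the lowest and highest libraries for oligodendrocyte and precursor markers, as they were for Scn4b and Cacna2d2.

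CRS 1 was the highest library for 9 of the 28 tested subunits and the lowest for 7. The highs included Cacna1a, Cacna1b, Cacna1d, Cacna1e, Cacna2d1 and Scn8a, and the lows Cacna2d2, Scn4b and Scn7a. Ctrl 2 was the highest for 1 subunit and the lowest for 7.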
